A study of Mus musculus with 6 samples.

Results

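Genes reported as splicing targets of RBM20 in heart, other than titin, were examined for their total transcript level in skeletal muscle given extra Rbm20. The 9 genes were Camk2d, Ldb3, Enah, Lmo7, Lrrfip1, Mlip, Nexn, Pdlim3 and Pdlim5. They were taken by symbol from a table of 55401 gene identifiers, and all 9 were present and passed the filter on low counts, as did 17222 genes in all. Rbm20 itself was 2.91-fold higher by mean CPM (a gene's reads scaled by library size and by edgeR's TMM factor) in AAV-RBM20 than in AAV-GFP muscle. The virus carries mouse Rbm20, and the count does not separate its transcripts from those of the muscle's own gene. In edgeR's quasi-likelihood test, 0 of the 9 targets and 0 of the 17222 genes passed an adjusted p of 0.05 between the groups. Rbm20 itself did not pass either, at an adjusted p of 0.121. The log2 fold changes of the targets ran from -0.25 for Nexn to 0.36 for Enah.

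The samples were tibialis anterior (TA) muscles of male C57BL/6 mice of genotype HSA-MCM-Bmal1-/-, in which tamoxifen switches on a Cre recombinase that deletes Bmal1, a core circadian clock gene, in skeletal muscle fibres. The mice were kept until 12 to 16 weeks of age, and tamoxifen was given at 2 mg daily on 5 days. An adeno-associated virus (AAV) was injected through the TA 4 weeks later, and muscle was taken 4 weeks after that. AAV-GFP muscle (n = 3) received a virus for green fluorescent protein and AAV-RBM20 muscle (n = 3) a virus for mouse Rbm20. Both groups therefore carried the Bmal1 deletion and the tamoxifen treatment, and no muscle with intact Bmal1 or without virus was part of the comparison. Per the study's methods the Rbm20 cDNA was driven by a CMV promoter, which is not limited to muscle fibres, and was given at a higher vector dose than GFP, so dose and transgene cannot be told apart. Since Cre was limited to muscle fibres, other cells of the muscle kept Bmal1. The labels do not say whether the samples of a group came from separate mice, and p-values measure the spread between these samples. For protein blots the study lists some mice with a different vector in each leg, and whether the sequenced samples were paired in this way is not given in the sources used here.

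RBM20 is an RNA-binding protein of striated muscle that binds UCUU-containing sites in pre-mRNA, mostly in introns, and makes the spliceosome skip or retain particular exons. Titin is its best known target, and loss of RBM20 in heart gives longer titin and a form of dilated cardiomyopathy. Its other targets encode Z-disc scaffolds, actin-binding proteins and a calcium-dependent kinase, whose isoforms differ between muscle types. A splicing regulator need not alter the amount of a transcript, and a gene-level count adds up all isoforms of a gene.

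The annotation shows what such a count adds up. The 9 genes have a median of 9 annotated protein-coding transcripts, from 2 for Pdlim3 to 12 for Pdlim5, against a median of 2 over the 13430 protein-coding genes tested. They have a median of 19 merged exons against 10, and a median span of 130 kb against 25.1 kb. Across the 9 genes, 64 internal exons are present in some protein-coding transcripts and skipped in others, and the length of 50 of these is a multiple of 3, so that skipping keeps the reading frame. Exons of this kind are printed here because reads from transcripts with and without them fall into the same count. For Camk2d all 3 in-frame exons of its variable linker are given. For each other gene an in-frame coding exon of 30 to 200 bases was taken. It is the one for which the smaller of 2 numbers, the transcripts with and those without it, is largest. Ties went to the longer exon, and Pdlim3 has no in-frame exon of that size. The sequences come from GENCODE M21 transcripts on GRCm38, written 5′ to 3′ in the direction of transcription, with any TCTT (UCUU in RNA) in capitals.
Camk2d, 33 bases, chr3:126802937-126802969, plus strand: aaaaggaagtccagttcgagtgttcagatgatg
Camk2d, 60 bases, chr3:126805857-126805916, plus strand: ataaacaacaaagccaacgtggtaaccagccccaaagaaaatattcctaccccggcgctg
Camk2d, 42 bases, chr3:126808208-126808249, plus strand: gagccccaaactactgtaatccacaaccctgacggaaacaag
Ldb3, 186 bases, chr14:34555343-34555528, minus strand: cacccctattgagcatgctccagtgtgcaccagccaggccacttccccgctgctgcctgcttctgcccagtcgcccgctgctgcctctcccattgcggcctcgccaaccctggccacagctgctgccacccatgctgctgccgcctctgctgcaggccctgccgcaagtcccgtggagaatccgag
Enah, 111 bases, chr1:181921658-181921768, minus strand: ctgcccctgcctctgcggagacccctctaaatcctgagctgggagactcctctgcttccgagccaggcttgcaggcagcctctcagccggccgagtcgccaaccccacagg
Lmo7, 30 bases, chr14:101888677-101888706, plus strand: acTCTTtcaaaagatctatggtgagaatgg
Lrrfip1, 78 bases, chr1:91088634-91088711, plus strand: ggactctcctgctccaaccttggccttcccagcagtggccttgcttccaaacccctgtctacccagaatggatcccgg
Mlip, 156 bases, chr9:77243572-77243727, minus strand: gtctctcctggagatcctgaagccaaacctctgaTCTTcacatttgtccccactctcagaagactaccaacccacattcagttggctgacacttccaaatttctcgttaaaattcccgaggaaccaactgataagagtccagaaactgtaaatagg
Nexn, 192 bases, chr3:152253612-152253803, minus strand: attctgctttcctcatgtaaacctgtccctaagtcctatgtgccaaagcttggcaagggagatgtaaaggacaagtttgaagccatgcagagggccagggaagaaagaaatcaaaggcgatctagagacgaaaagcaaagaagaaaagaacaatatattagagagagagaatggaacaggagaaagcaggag
Pdlim5, 144 bases, chr3:142282969-142283112, minus strand: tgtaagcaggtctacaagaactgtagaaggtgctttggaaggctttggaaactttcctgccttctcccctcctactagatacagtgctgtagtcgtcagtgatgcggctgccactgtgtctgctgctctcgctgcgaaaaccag

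The letters TCTT, searched on the transcript strand with overlaps allowed, occur in 2 of these 10 exons, those of Lmo7 and Mlip. Among all annotated internal coding exons of the same length as these 2, 9.3% and 46.4% hold TCTT. For the lengths of the exons without it, the share is 7.78%, 23.2% and 16.9% for Camk2d, 47.1% for Ldb3, 36.8% for Enah, 27.6% for Lrrfip1, 52% for Nexn and 43.4% for Pdlim5. The count depends on which exons are shown: a 132-base exon of Pdlim5, as even in its transcripts but shorter, holds TCTT 4 times. The printed Enah exon shares an end with longer annotated versions of 303 and 843 bases, which hold TCTT 1 and 5 times. Of all 50 in-frame exons, 20 hold it. These include exons far longer than any printed here, and overlapping versions that are counted separately. An example is Mlip, with exons of 1470 and 1545 bases that overlap and hold TCTT 13 times each. The 20 of 50 was not compared with exons of the same lengths, so it does not show whether TCTT is frequent in these genes. Introns, where most RBM20 sites lie, were not searched. Of the coding transcripts of Camk2d, 1 holds the 33-base exon and 8 skip it, 4 hold and 6 skip the 60-base exon, and 5 hold and 6 skip the 42-base exon. The deposited counts do not separate these transcripts.

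Libraries differed in ways that the groups do not explain. Total counts ranged from 41400132 to 54226618. Titin took 16.9% to 17.8% of all counts in the 4 libraries numbered 1 and 2, but 4.48% in AAV-GFP replicate 3 and 9.05% in AAV-RBM20 replicate 3, which also had the highest mitochondrial shares, 12.5% and 11.4%. The 9 targets together took 0.243% to 0.276% of counts. Skeletal muscle markers were abundant in all libraries, with a summed level over Acta1, Ckm, Myh4, Myh2, Myh1, Actn3, Tnnt3 and Pvalb of 95598 to 104269 CPM across AAV-GFP replicates and 60545 to 91348 CPM across AAV-RBM20 replicates, so the label of skeletal muscle is borne out by its markers. The overexpressed gene, Rbm20, had 170, 165 and 164 CPM in AAV-GFP replicates 1, 2 and 3, against 499, 545 and 406 CPM for AAV-RBM20. The groups stood apart by a log2 fold change of 1.54 ± 0.15 (SE), with an adjusted p by edgeR's quasi-likelihood test of 0.121, or 0.0107 with the replicate number as a block.

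**Figure D1:**
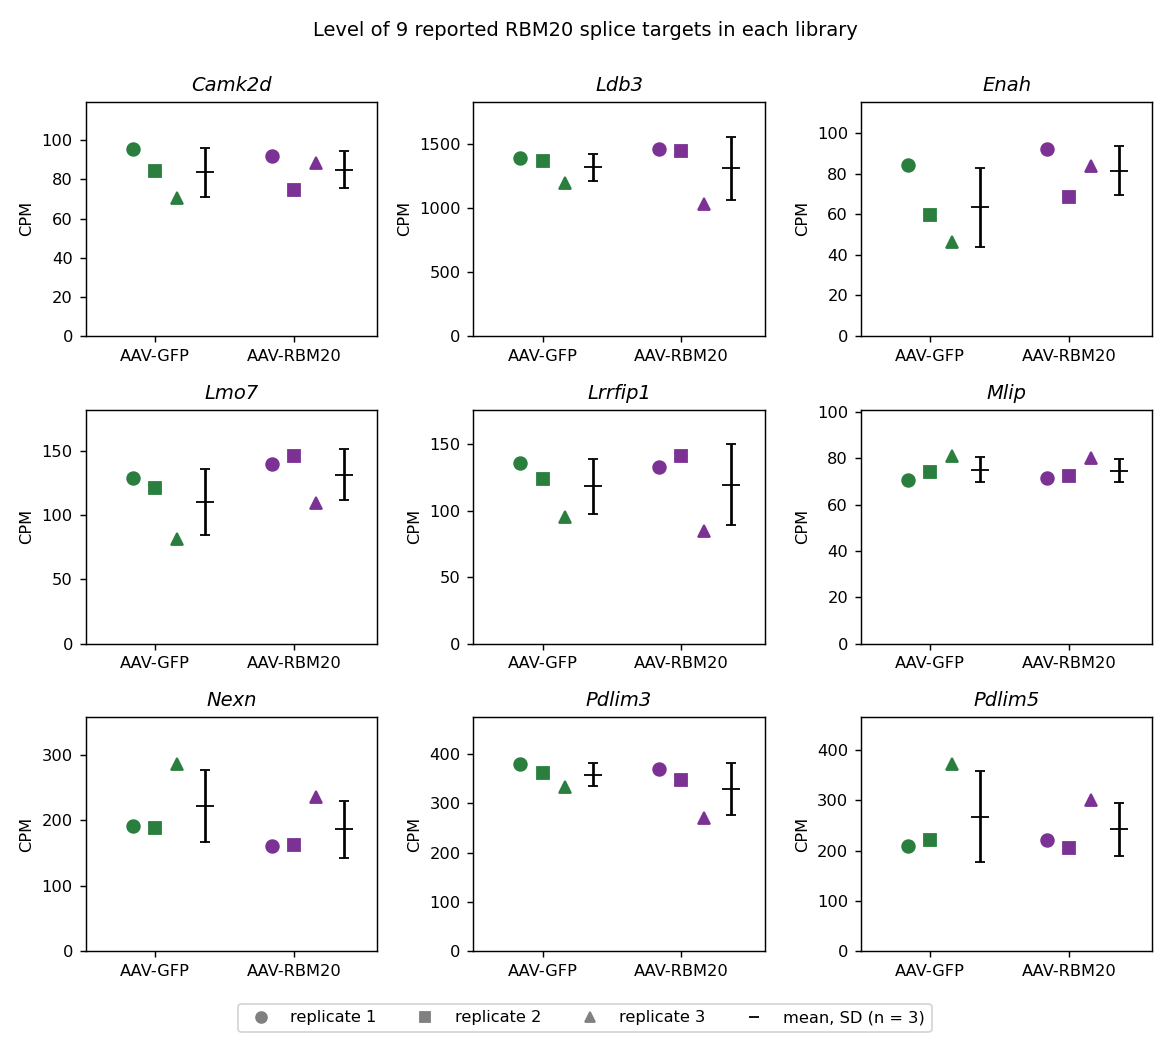
Level of each of the 9 genes in CPM (y axes, each from 0) in AAV-GFP and AAV-RBM20 libraries; marker shapes give the replicate number and bars the mean with SD (n = 3). The ranges of the groups overlap for all 9 genes, and for Nexn and Pdlim5 the triangles of replicate 3 stand above the others in both groups.

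Ldb3, Pdlim3 and Pdlim5 encode PDZ and LIM domain proteins that bind alpha-actinin at the Z-disc. Ldb3 (ENSMUSG00000021798; GRCm38 chr14:34526603-34588682, minus strand), which encodes ZASP/Cypher, was measured at 1392, 1373 and 1196 CPM in AAV-GFP replicates 1, 2 and 3 and at 1467, 1446 and 1030 CPM in AAV-RBM20 replicates 1, 2 and 3. Both libraries numbered 3 were the lowest of their group, and the group ranges overlapped. The means were 1320 ± 108 CPM and 1315 ± 246 CPM (SD, n = 3 each). This amounted to a log2 fold change of -0.0060 ± 0.18 (SE), with a 95% interval of -0.42 to 0.41 and an adjusted p (edgeR) of 0.994.

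Pdlim3 (ENSMUSG00000031636; chr8:45885461-45919548, plus strand), which encodes ALP, was measured at 380, 362 and 333 CPM across AAV-GFP replicates and 370, 347 and 271 CPM across AAV-RBM20 replicates. AAV-RBM20 was below AAV-GFP in 3 of 3 same-numbered pairs, by more in the pair numbered 3 than in the others. Between groups the log2 fold change came to -0.12 ± 0.16 (SE), at an adjusted p (edgeR) of 0.826. Without AAV-RBM20 replicate 3 the sign was lost, at 0.0088.

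Pdlim5 (ENSMUSG00000028273; chr3:142239590-142395696, minus strand), which encodes ENH, had levels of 210, 221 and 372 CPM across AAV-GFP replicates and 220, 204 and 301 CPM across AAV-RBM20 replicates. The replicates numbered 3 were far above the others of their group, by 0.79 on the log2 scale in AAV-GFP and 0.50 in AAV-RBM20. The fitted log2 fold change was -0.15 ± 0.25 (SE), the largest SE among the 9 genes, with an edgeR adjusted p of 0.876. It was 0.16 without AAV-GFP replicate 3.

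Nexn, Enah, Lmo7 and Lrrfip1 encode proteins tied to actin. Nexn (ENSMUSG00000039103; chr3:152236982-152266350, minus strand), which encodes nexilin, an actin-binding protein of the Z-disc, was measured at 191, 189 and 286 CPM across AAV-GFP replicates and 161, 162 and 236 CPM across AAV-RBM20 replicates. For each number the AAV-RBM20 library was below the AAV-GFP library, by 0.25, 0.22 and 0.28 on the log2 scale. Because replicate 3 was high in both groups, the ranges overlapped. On the log2 scale the fold change was -0.25 ± 0.22 (SE), with a 95% interval of -0.77 to 0.27 and an adjusted p (edgeR) of 0.744. With the replicate number as a block it was -0.25 ± 0.09 (SE), with an adjusted p of 0.207, and without the pair numbered 3 the adjusted p was 0.065. Without AAV-GFP replicate 3 alone the log2 fold change was -0.031. A further annotated gene on the same strand, Gm43185, shares 287 exon bases with Nexn, so its count is uncertain to that extent.

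Enah (ENSMUSG00000022995; chr1:181896384-182019990, minus strand) encodes MENA, a regulator of actin filament growth. Its levels were 84.3, 59.5 and 46.2 CPM across AAV-GFP replicates and 92.3, 68.6 and 83.6 CPM across AAV-RBM20 replicates. AAV-RBM20 was above AAV-GFP in 3 of 3 pairs, by 0.13 and 0.21 in the pairs numbered 1 and 2 and by 0.86 in the pair numbered 3 (log2), and AAV-GFP replicate 1 lay above 2 of the AAV-RBM20 libraries. The means were 63.3 ± 19.3 CPM and 81.5 ± 12.0 CPM (SD, n = 3 each). This amounted to a log2 fold change of 0.36 ± 0.23 (SE), with a 95% interval of -0.16 to 0.89 and an adjusted p (edgeR) of 0.665, the lowest of the 9 genes. It fell to 0.18 without AAV-GFP replicate 3 and was 0.62 without AAV-GFP replicate 1.

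Lmo7 (ENSMUSG00000033060; chr14:101729957-101934710, plus strand) encodes a PDZ, LIM and calponin homology domain protein that binds actin filaments. It was measured at 129, 121 and 81.2 CPM across AAV-GFP replicates and 140, 146 and 109 CPM across AAV-RBM20 replicates. Every pair was higher in AAV-RBM20, by 0.11, 0.27 and 0.43 (log2) for numbers 1, 2 and 3, while the ranges overlapped because AAV-RBM20 replicate 3 lay below AAV-GFP replicates 1 and 2. Between groups the log2 fold change came to 0.25 ± 0.20 (SE), at an adjusted p (edgeR) of 0.727, and 0.071 without AAV-GFP replicate 3. With the block it was 0.27 ± 0.10 (SE), with an adjusted p of 0.211.

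Lrrfip1 (ENSMUSG00000026305; chr1:90998737-91128944, plus strand) encodes a partner of the actin-severing protein Flightless-1. Its levels were 136, 124 and 95.1 CPM across AAV-GFP replicates and 133, 141 and 84.6 CPM across AAV-RBM20 replicates. Replicate 3 was the lowest in both groups, and the pairs went in different directions. The fitted log2 fold change was 0.016 ± 0.22 (SE), at an adjusted p (edgeR) of 0.988. Its sign was reversed under 9 of 20 alternatives.

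Camk2d and Mlip encode a kinase and a protein that interacts with lamin A/C. Camk2d (ENSMUSG00000053819; chr3:126596302-126846326, plus strand) encodes the delta chain of calcium/calmodulin-dependent kinase II, whose variable linker helps set its place in the cell (the 33-base exon above carries a nuclear localization signal). It was measured at 95.7, 84.5 and 70.6 CPM across AAV-GFP replicates and 92.0, 74.6 and 88.5 CPM across AAV-RBM20 replicates. The libraries of the groups were interleaved, with AAV-GFP replicate 1 the highest and AAV-GFP replicate 3 the lowest. On the log2 scale the fold change was 0.025 ± 0.16 (SE), with a 95% interval of -0.33 to 0.38 and an adjusted p (edgeR) of 0.971. On the opposite strand 1 annotated gene overlaps Camk2d and on the same strand 7, none sharing exon bases with it.

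Mlip (ENSMUSG00000032355; chr9:77102081-77352969, minus strand) encodes a muscle protein that interacts with lamin A/C. Its levels were 70.4, 74.1 and 80.8 CPM across AAV-GFP replicates and 71.5, 72.5 and 80.2 CPM across AAV-RBM20 replicates. These lay within the narrowest range of the 9 genes, and no pair differed by more than 0.032 on the log2 scale. This amounted to a log2 fold change of -0.0078 ± 0.12 (SE), with a 95% interval of -0.29 to 0.27 and an adjusted p (edgeR) of 0.990.

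**Figure D2:**
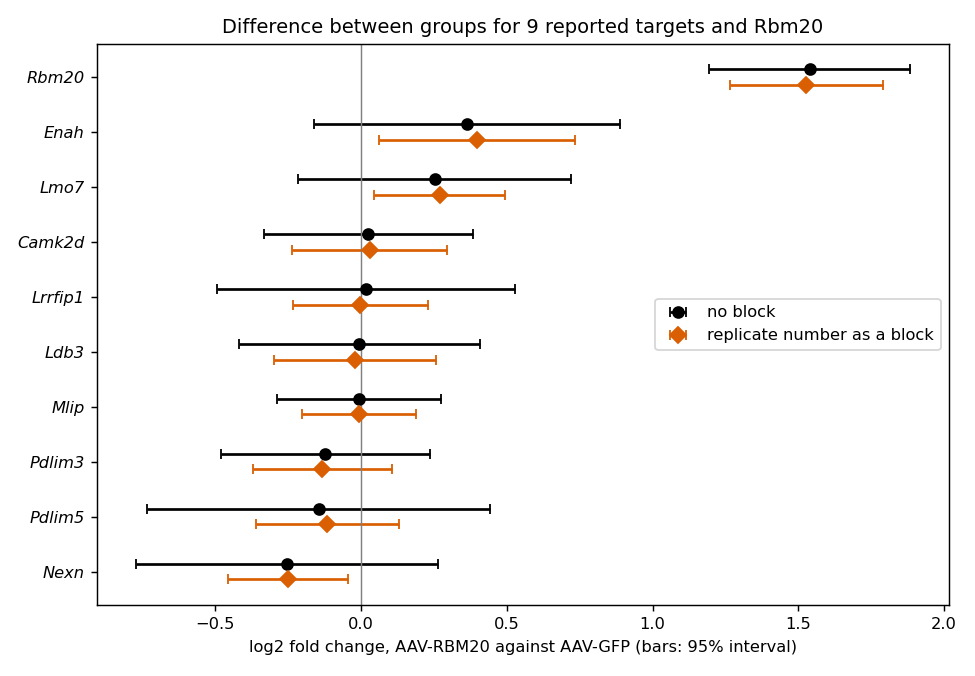
Log2 fold change of AAV-RBM20 against AAV-GFP (x axis) for the 9 genes and Rbm20, from the edgeR fit without a block (circles) and with the replicate number as a block (diamonds); bars are 95% intervals. All 9 genes have intervals that include 0 without the block, Enah, Lmo7 and Nexn do not with it, and the Rbm20 interval of 1.19 to 1.88 lies above those of all 9 genes.

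As a group, the 9 targets had 4 log2 fold changes above 0 and 5 below, with a median of -0.0060. Over all genes tested the median was 0.0090, and 51.3% were above 0. The median size of the change, regardless of sign, was 0.12 for the targets and 0.21 for all genes. These medians were not compared at equal level. The targets had a median of 18.4 CPM per kilobase of merged exons, against 2.49 for the protein-coding genes tested. In edgeR's test 0 of 9 targets and 0 of 17222 genes (0%) passed an adjusted p of 0.05. At an unadjusted p under 0.05 there were 0 of 9 targets against 7.9% of all genes (4.08% higher and 3.82% lower in AAV-RBM20), and DESeq2 and limma-voom gave 0 of 9 as well. The groups did not overlap for 0 of 9 targets and for 16.8% of all genes, 7.71% with AAV-RBM20 above and 9.04% with it below. Higher values in 3 of 3 pairs were seen for 2 targets, Enah and Lmo7 (22.2% of all genes), and lower values for 2, Nexn and Pdlim3 (23% of all genes).

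With the replicate number as a block, 3 targets had an unadjusted p under 0.05, against 18.8% of all genes. These were Enah and Lmo7, higher (8.92% of all genes), and Nexn, lower (9.92% of all genes). Still 0 of 9 passed after adjustment, against 25 genes (0.145%) of all. The two-sided exact permutation test over the 6 libraries gave p values from 0.3 for Enah to 1 for Ldb3 and Lrrfip1, where 0.1 is the smallest it allows.

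The intervals limit how large a change in total transcript could have gone unseen. Without the block, the lowest lower bound was a fold of 0.585, for Nexn, and the highest upper bound a fold of 1.85, for Enah. For Rbm20 itself the interval ran from 2.29-fold to 3.69-fold. A change in exon use that leaves the total count as it is would not appear in these values.

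**Figure D3:**
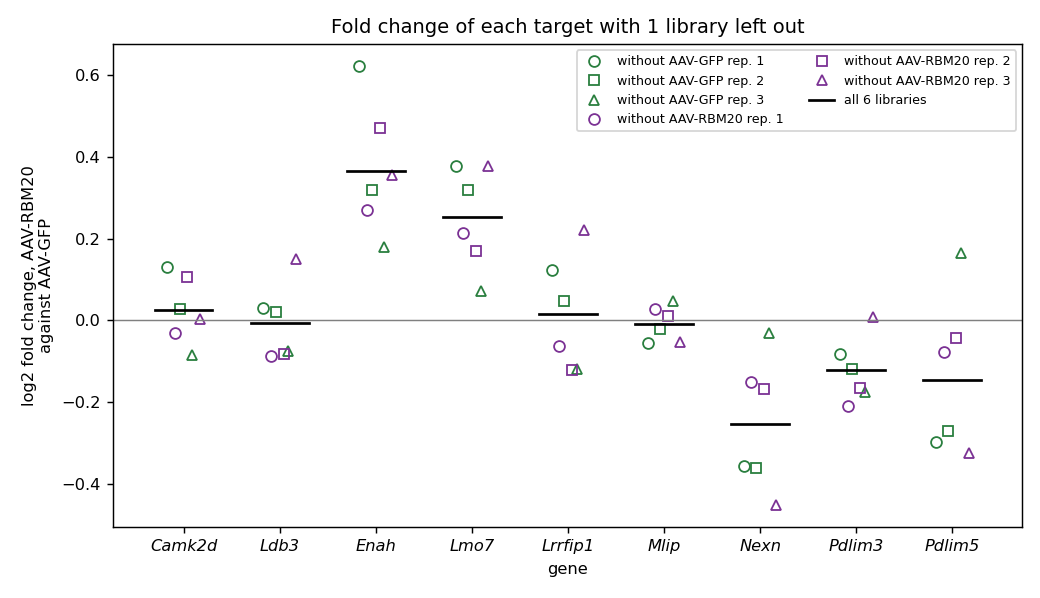
Log2 fold change of each gene (y axis) with 1 of the 6 libraries left out in turn; color and shape name the library left out and the black line is the value from all 6. Enah and Lmo7 stay above 0 and Nexn stays below 0 in all 6 fits, while the other 6 genes have values on both sides of 0.

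The targets were also compared between the libraries numbered 3 and the rest of their group. Relative to replicates 1 and 2 of the same group, Nexn was higher in replicate 3 by 0.59 in AAV-GFP and 0.55 in AAV-RBM20, on the log2 CPM scale. For Pdlim5 these differences were 0.79 and 0.50, and for Mlip 0.16 and 0.16. In the other direction, Lmo7 was lower by 0.62 and 0.39, Lrrfip1 by 0.45 and 0.69, Ldb3 by 0.21 and 0.50, and Pdlim3 by 0.15 and 0.40. Camk2d and Enah were lower in AAV-GFP replicate 3, by 0.35 and 0.62, but not in AAV-RBM20 replicate 3, where they were higher by 0.096 and 0.071. So 3 of 9 targets were higher in both libraries numbered 3, as were 37% of all genes, and 4 of 9 were lower in both, as were 33.7% of all genes. Without that pair, 0 of 9 targets and 690 of 17250 genes passed an adjusted p of 0.05, and 2 targets, Lmo7 and Nexn, had an unadjusted p under 0.05, against 18.5% of all genes. The same libraries had the low titin and high mitochondrial shares given above, and the part of these in the targets' values was not tested.

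**Figure D4:**
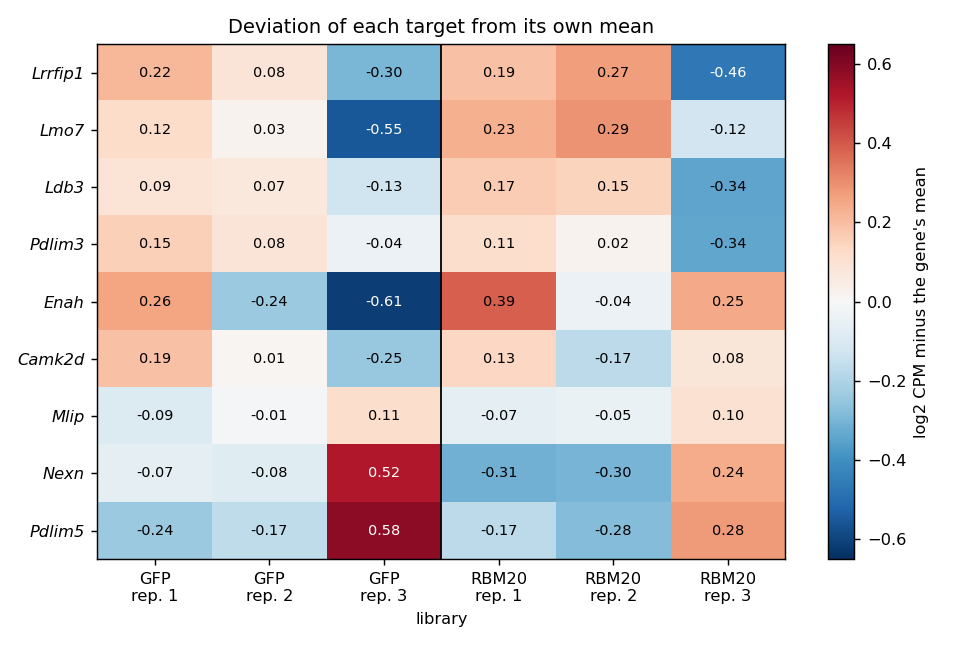
Log2 CPM of each gene (rows) in each library (columns) minus the gene's mean over the 6 libraries, with red above and blue below that mean. Nexn and Pdlim5 are above their means in both libraries numbered 3, at 0.52 and 0.58 for AAV-GFP, then 0.24 and 0.28 for AAV-RBM20, and Lrrfip1, Lmo7, Ldb3 and Pdlim3 are below.

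Over the 6 libraries, the 3 nearest pairs of centred log2 profiles among the targets were Ldb3 and Pdlim3, at a root-mean-square distance of 0.072, Nexn and Pdlim5 at 0.10, and Ldb3 and Lrrfip1 at 0.11, while the most distant pair, Lmo7 and Pdlim5, differed by 0.59. Among 7945 other genes whose mean log2 CPM was 3 or more, those nearest to Camk2d were Gm44386, Uhrf1bp1l and Cat, at distances of 0.035, 0.036 and 0.044. Those nearest to Ldb3 were Ddb1, Tufm and Wdr77, at 0.023, 0.023 and 0.032. No other target was among the 3 nearest genes of any target.

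Levels of different genes were compared per length, as CPM per kilobase of merged exons over all 6 libraries. Ldb3 was the highest at 216 ± 27.9 (SD, n = 6), followed by Pdlim3 at 66.8 ± 7.65, Nexn at 53.4 ± 12.7, Pdlim5 at 28.7 ± 7.59 and Lrrfip1 at 18.4 ± 3.61. Lmo7 followed at 10.1 ± 1.96, Mlip at 8.40 ± 0.506, Camk2d at 3.75 ± 0.439 and Enah at 3.38 ± 0.815. Transcripts of Z-disc proteins thus led, and those of the kinase and the actin filament regulator came last. The last places depend on the divisor. Over all annotated transcripts, Camk2d and Enah have 22493 and 21452 merged exon bases, the most of the 9 genes, and Mlip has 8916. In mean CPM, Camk2d was above Mlip, at 83.6 against 75.1 in AAV-GFP and 85.0 against 74.7 in AAV-RBM20. Enah was below Mlip in AAV-GFP, at 63.3, and above it in AAV-RBM20, at 81.5. Neighbors in the order per length whose library ranges overlapped were Pdlim3 with Nexn, Lmo7 with Mlip, and Camk2d with Enah. The median of the 9 targets was 18.4, against 2.49 over the protein-coding genes tested.

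**Figure D5:**
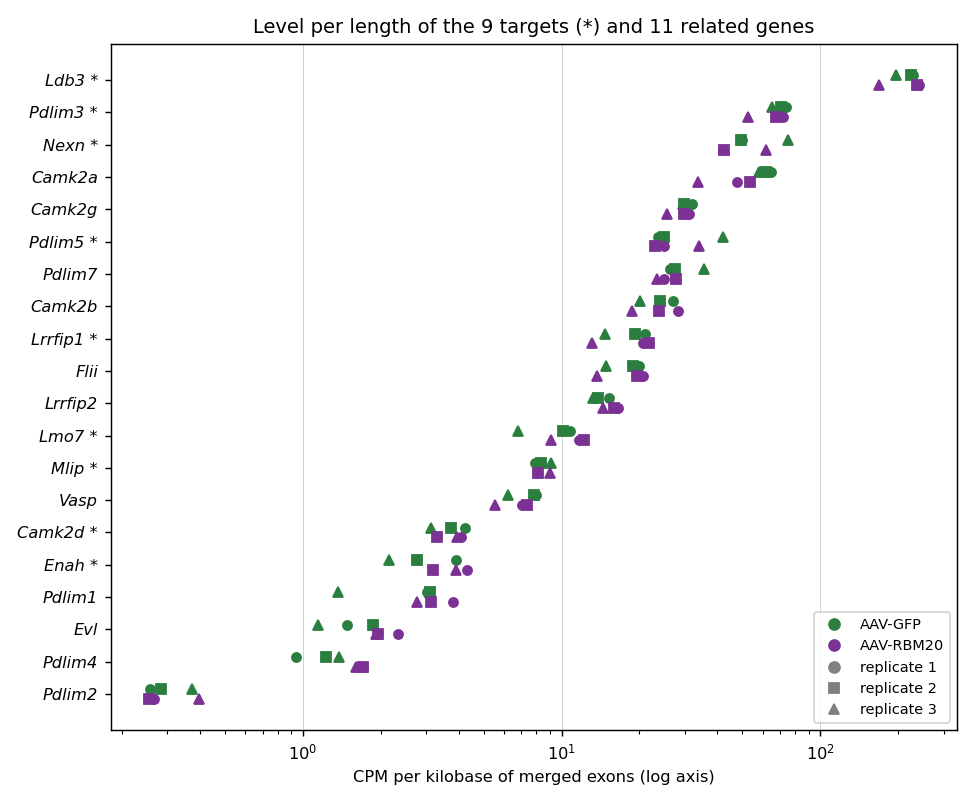
CPM per kilobase of merged exons (log axis) of the 9 genes, marked with a star, and of 11 related genes in each library; color gives the group and shape the replicate number. Ldb3 is the highest, and Camk2d lies below Camk2a, Camk2b and Camk2g.

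Of 11 related genes, 0 passed after adjustment, and the groups did not overlap for 3, namely Camk2a, Pdlim4 and Evl, against 16.8% of all genes. Among the calcium/calmodulin-dependent kinase II genes, Camk2d was the lowest per length, and Camk2a, Camk2g and Camk2b had 53.1 ± 11.2, 29.6 ± 2.15 and 23.6 ± 3.70 CPM per kilobase (SD, n = 6). Camk2a was measured at 482, 459 and 431 CPM across AAV-GFP replicates and 356, 399 and 252 CPM across AAV-RBM20 replicates, so that all AAV-RBM20 libraries lay below all AAV-GFP libraries. Between groups the log2 fold change came to -0.45 ± 0.18 (SE), and it did not pass in edgeR's test, with an adjusted p of 0.618. Camk2b and Camk2g had log2 fold changes of -0.0025 and -0.075.

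Of the other PDZ-LIM genes, Pdlim7 was the highest at 27.5 ± 4.23 CPM per kilobase and Pdlim2 the lowest at 0.306 ± 0.0636 (SD, n = 6). Pdlim4 had 2.41, 3.14 and 3.53 CPM across AAV-GFP replicates and 4.36, 4.38 and 4.12 CPM across AAV-RBM20 replicates, which is low but without overlap. The fitted log2 fold change was 0.50 ± 0.20 (SE), at an adjusted p (edgeR) of 0.618. Pdlim1, Pdlim2 and Pdlim7 had log2 fold changes of 0.38, 0.0081 and -0.23. Among the relatives of Enah and Lrrfip1, Evl had a log2 fold change of 0.47 ± 0.21 (SE) without overlap of the groups and with an edgeR adjusted p of 0.641, Vasp -0.15 and Lrrfip2 0.15. Flii, which encodes the Lrrfip1 partner Flightless-1 and is not a paralog, had 0.0093.

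A further 19 genes named as RBM20 targets in heart, titin among them, had a median log2 fold change of 0.023, with 10 above 0 and 9 below. None of the 19 passed after adjustment in edgeR's test. The groups did not overlap for 2 with AAV-RBM20 above (7.71% of all genes) and for 1 with it below (9.04% of all genes). With the replicate number as a block, edgeR gave an unadjusted p under 0.05 for 3 higher (8.92% of all genes) and 2 lower (9.92% of all genes). Myh7, the slow myosin heavy chain, had the most negative value at -0.62 ± 1.01 (SE), from levels of 0.095 to 5.97 CPM, and a value of 0.090 with the block. Titin had 191375, 179501 and 44299 CPM across AAV-GFP replicates and 168423, 183540 and 77118 CPM across AAV-RBM20 replicates, a log2 fold change of 0.048 ± 0.55 (SE).

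The Z-disc also holds partners of Ldb3, Pdlim3 and Pdlim5. Of 18 such genes, 0 passed after adjustment in edgeR's test, 10 had log2 fold changes above 0 and 8 below, and the median was 0.019. The most positive was Fhl1, a LIM domain protein, at 0.57 ± 0.36 (SE). The most negative was Actn3, the alpha-actinin of fast fibres, at -0.56 ± 0.21 (SE), with 7458, 6762 and 8562 CPM across AAV-GFP replicates and 5335, 6114 and 4004 CPM across AAV-RBM20 replicates. The groups did not overlap for Actn3, and it had an unadjusted p under 0.05, as did 3.82% of all genes in that direction, with an edgeR adjusted p of 0.618.

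Some targets, Enah, Lmo7 and Lrrfip1 among them, are also made by cells other than muscle fibres. In whole muscle, fewer cells of a type and less RNA per cell cannot be told apart. Of the 8 skeletal muscle markers 6 had log2 fold changes below 0, and their summed levels in AAV-RBM20 were all below those in AAV-GFP. Fibroblast markers summed to 643 to 1313 CPM across AAV-GFP replicates and 1053 to 1460 CPM across AAV-RBM20 replicates, with 8 of 8 above 0, and macrophage markers to 33.1 to 103 CPM and 68.1 to 157 CPM, with 7 of 8 above 0. Slow fibre markers summed to 58.7 to 111 CPM and 99.2 to 157 CPM, with 7 of 8 above 0. Markers of regenerating or denervated fibres summed to 58.8 to 380 CPM and 93.8 to 433 CPM, with all 7 tested of 8 above 0. Actc1, named after its values were seen, made up most of these sums. It had 39.4 to 359 CPM across AAV-GFP replicates and 66.0 to 396 CPM across AAV-RBM20 replicates. The log2 fold changes of the 7 ran from 0.25 for Actc1 to 2.00, with a median of 0.54. The groups did not overlap for 4 of them, all higher in AAV-RBM20, against 7.71% of all genes. The smooth muscle and pericyte markers summed to 641 to 662 CPM and 625 to 665 CPM, with 5 of 8 above 0, and the endothelial markers to 193 to 441 CPM and 296 to 421 CPM, with 7 of 8 above 0. No marker was at 0 in any library, and none passed after adjustment in edgeR's test without the block. At an unadjusted p under 0.05, 2 skeletal muscle markers were lower (3.82% of all genes), and 2 slow fibre, 4 regenerating fibre, 1 fibroblast and 2 macrophage markers were higher (4.08% of all genes). With the block, 4 skeletal muscle markers were lower (9.92% of all genes), and 2 slow fibre, 5 regenerating fibre, 4 fibroblast, 7 macrophage and 1 smooth muscle markers were higher (8.92% of all genes). With it 2 markers passed after adjustment in edgeR's test, named here after their values were seen, Runx1 of the regenerating fibre list at an adjusted p of 0.0271 and Ptprc of the macrophage list at 0.0478. The part of these cells in the targets' values was not tested.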

How the data were processed

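Total RNA of whole TA muscle was depleted of ribosomal RNA and made into stranded libraries, sequenced as paired reads. Per the labels and the study's methods, the authors aligned reads with HISAT2 (mm10) and tallied them by gene in HTSeq. Versions, annotation release and strand setting are not given in the sources used here, so overlapping genes are named as uncertain. The deposited counts are raw whole numbers. A second deposited table holds a signal made by dividing these counts by 1 DESeq2 size factor per library, since the ratio of both tables was constant within each library, and it was not tested again.

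Symbols, positions and merged exon lengths came from GENCODE M21 (GRCm38), which holds 55141 of 55401 identifiers. Groups were compared in edgeR 4.0.16 (R 4.3.3): filterByExpr, TMM, glmQLFit with robust estimation, glmQLFTest, no covariate, Benjamini-Hochberg adjustment over 17222 genes, threshold 0.05. The SE is the log2 fold change divided by the root of F, and 95% intervals use the t quantile of the fit. Log2 CPM used a prior count of 2. The code was tested on simulated counts with known changes. These were drawn independently for each library, with the same dispersion for every gene and no deviating replicate number. That checks the code and not how the fit performs on the libraries used here.

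Total counts ranged from 41400132 to 54226618, and the lowest count of a target in any library was 2430. Replicates of a group differed by a chi-square per degree of freedom of 15.1 to 545, so none was a copy of another. Replicate numbers come from the titles, while the descriptions number AAV-RBM20 samples from 4 to 6. Deviations of log2 CPM from group means correlated across genes at 0.42, 0.20 and 0.48 between same-numbered libraries and at -0.42 to 0.22 between others. All 3 exceeded 0.1, so values with the number as a block stand beside results they change, while the stated test has no block. AAV-GFP replicate 2 with AAV-RBM20 replicate 1 also exceeded 0.1, at 0.22, above the 0.20 of the pair numbered 2. The correlations therefore cannot settle whether libraries numbered 1 and 2 are matched. No label gives the meaning of a number.

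The tests were repeated with scaling by upper quartile or by DESeq2 size factors, other low-count filters, mitochondrial, ribosomal RNA, Ttn and Rbm20 counts left out, the block, DESeq2 1.42.0, limma-voom (limma 3.58.1), removed length trends, and left-out libraries or pairs. The text names the 9 targets, Rbm20, titin, the paralogs with Flii, the extremes of the lists of other targets and Z-disc partners, and the 3 nearest profiles of Camk2d and Ldb3. A gene that this rule names is not reported here. The targets and lists were chosen with earlier results of these data known, and the lists were written from general knowledge.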

Additional observations from a re-analysis of the deposited data

How the results depend on the processing

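Under every alternative 0 of the 9 targets passed an adjusted p of 0.05, and the lowest adjusted p of any target was 0.065, for Nexn without the pair numbered 3. The median log2 fold change of the targets stayed between -0.071 and 0.038, and ranged from -0.062 to 0.031 when 1 replicate was left out. The count of all genes past the threshold was 0 in the main test, in every fit that left out 1 replicate, with both other scalings, with mitochondrial, ribosomal RNA, Ttn and Rbm20 counts left out, with the CPM filter, with limma-voom, with gene length trends removed and without the pair numbered 1 or 2. It was 8 with no filter on low counts, 75 with DESeq2, 25 with the replicate block, 92 with the block and length trends removed, 690 without the pair numbered 3 and 513 with DESeq2 and the block. The last alternative was chosen after seeing the data. The replicate block changed the call of no target.

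Enah, Lmo7 and Nexn kept their direction under all 20 alternatives. When 1 replicate was left out, the log2 fold change ranged from 0.18 to 0.62 for Enah, from 0.071 to 0.38 for Lmo7, from -0.45 to -0.031 for Nexn, from -0.085 to 0.13 for Camk2d, from -0.086 to 0.15 for Ldb3, from -0.12 to 0.22 for Lrrfip1, from -0.056 to 0.046 for Mlip, from -0.21 to 0.0088 for Pdlim3 and from -0.32 to 0.16 for Pdlim5. Values that changed sign otherwise were all near 0, and the cause was not tested. Ldb3 and Mlip were 0.035 and 0.038 with upper quartile factors, under which the median of all genes moved from 0.0090 to 0.053, and 0.018 and 0.020 with the CPM filter. Lrrfip1 was -0.0032 with the replicate block, -0.0040 with limma-voom, -0.11 without the pair numbered 2, -0.010 with length trends removed, -0.030 with these and the block, and -0.0095 with DESeq2 and the block. Camk2d was -0.091 with length trends removed, -0.096 with these and the block, and -0.10 without the pair numbered 3, where Ldb3 was 0.083 and Mlip 0.0014.

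The lowest count of a target in any library was 2430, and the effect of depth was not tested.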
